A study of Homo sapiens with 36 samples.

Results

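Transcript levels of 10 genes that govern entry into the cell cycle were followed through treatment with a cryptochrome stabilizer and 2 proteasome inhibitors. The 10 genes are the D-type cyclins CCND1 and CCND3, the E-type cyclins CCNE1 and CCNE2, the cyclin-like gene CCNG2, the kinase gene CDK6, the CDK inhibitor genes CDKN1A (p21) and CDKN1B (p27), the ubiquitin ligase gene MDM2 and the mitotic entry kinase WEE1. They were chosen by name, as G1 regulators together with WEE1 and CDKN1A, which are known as clock-linked cell cycle genes, and make up 10 of the 54583 genes in the count tables. All 10 passed the filter on low counts in every table.

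The study sequenced polyA RNA in 36 libraries of MDA-MB-231, an established triple-negative breast cancer cell line. The libraries form 3 sets of 12, each with 4 groups of 3. In the first set, cells received DMSO, 10 µM SHP1705, 100 nM MG132, or SHP1705 with MG132, for 8 h. In the other sets the inhibitor was 10 nM carfilzomib, with the same DMSO, 10 µM SHP1705 and combination arms, for 8 h in one set and 24 h in the other. Every group, DMSO controls included, received DMSO as the vehicle, in RPMI-1640 with fetal bovine serum. SHP1705 is a small molecule that stabilizes CRY2, a repressor of the circadian clock. Carfilzomib is an irreversible blocker of the proteasome, and MG132 a reversible one. The labels number replicates but do not say whether they came from separate cultures. The spread behind each p-value is that between libraries of a group, pooled over all groups in the fit, and may be technical only.

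D-type cyclins bind CDK4 and CDK6, and E-type cyclins bind CDK2, to phosphorylate the retinoblastoma protein and let cells leave G1. CDKN1A and CDKN1B proteins restrain these kinases, and WEE1 holds CDK1 inactive before mitosis. Many of these proteins are short-lived and are removed by the proteasome, whereas the values here are transcript levels only. The clock activator formed by CLOCK and ARNTL (BMAL1) binds E-box sequences and is held back by CRY and PER proteins.

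Levels are given as CPM, the gene's counts over the total scaled to 1e+06, after scaling each library by the trimmed mean of M values (TMM) within its set. A gene was called changed at an adjusted p under 0.05 in the quasi-likelihood test of edgeR, adjusted by Benjamini-Hochberg over all genes tested, and every adjusted p below comes from that test unless another is named. Rounded total counts per library were 34200000 to 39300000 with MG132. They were 17800000 to 27700000 at 8 h and 18900000 to 34000000 at 24 h in the carfilzomib sets. The lowest count of any of the 10 genes in any library was 118.

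The label check turned up features in 2 of the sets that touch the results below. PER3, a clock gene driven from E-boxes, was lower in every SHP1705 library than in every DMSO library in the MG132 set (4.46 to 5.07 against 13.8 to 14.7 CPM) and in the carfilzomib 24 h set (0.709 to 1.43 against 18.9 to 22.9 CPM). In the carfilzomib 8 h set, PER3 was at 8.19, 2.06 and 1.55 CPM in the libraries labelled DMSO 1, 2 and 3, and at 2.25, 9.62 and 7.91 CPM in those labelled SHP1705. In that set the library numbered 1 stood apart from both others of its label in every group, and the data go against the labels. Its results are therefore given last and as labelled. In the MG132 set, the stromal gene POSTN was at 0.11 to 0.255 CPM in DMSO, but at 28.2 and 29.4 CPM in SHP1705 libraries 2 and 3, at 33.6 and 173 CPM in MG132 libraries 1 and 3, and at 98.3, 222 and 242 CPM in the combination. The summed level of 9 fibroblast and stromal markers ranged over 18.1 to 19.4 CPM in DMSO, 17.7 to 55.1 in SHP1705, 18 to 205 in MG132 and 126 to 282 in the combination. POSTN made up most of the rise, with CDH2 at up to 16.7 CPM, while in all 12 libraries COL1A1 ran from 3.98 to 11.4, COL1A2 from 6.65 to 10.1, PDGFRB from 2.56 to 4.82 and LUM from 0.629 to 1.68 CPM. THY1 and DCN were at or below 0.171 CPM. VIM, CD44, KRT8, KRT18 and EPCAM, which mark this line, were detected in every library, and POSTN was at or below 0.191 CPM in both carfilzomib sets. In the carfilzomib 8 h set, CDKN2A, a fixed readout of other cells, was at 1.84 to 2.48 CPM under the label combination and 0.126 to 0.797 CPM under DMSO. The summed level of 3 liver markers there ranged up to 6.44 CPM under SHP1705 and 5.76 CPM under combination, and up to 0.234 CPM under DMSO. The source of the POSTN, CDKN2A and liver marker RNA was not tested. In bulk RNA, more cells of another type and more RNA per cell cannot be told apart.

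Per kilobase of merged exons, CCND1 was the most abundant of the 10 in DMSO, at a mean of 158 CPM per kb in the MG132 set and 156 in the carfilzomib 24 h set. CDKN1A followed at 48.3 and 58.6 CPM per kb, then CCND3 at 30.7 and 42.7 and CDKN1B at 11.2 and 10.9. The other 6 lay between 2.16 and 7.37 CPM per kb in the MG132 set, and in that set WEE1 and CCNE2 were at 5.13 and 5.12 CPM per kb. The order of these 6 differed between the sets: CCNE2 was eighth in the MG132 set and last in the carfilzomib 24 h set.

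**Figure D1:**
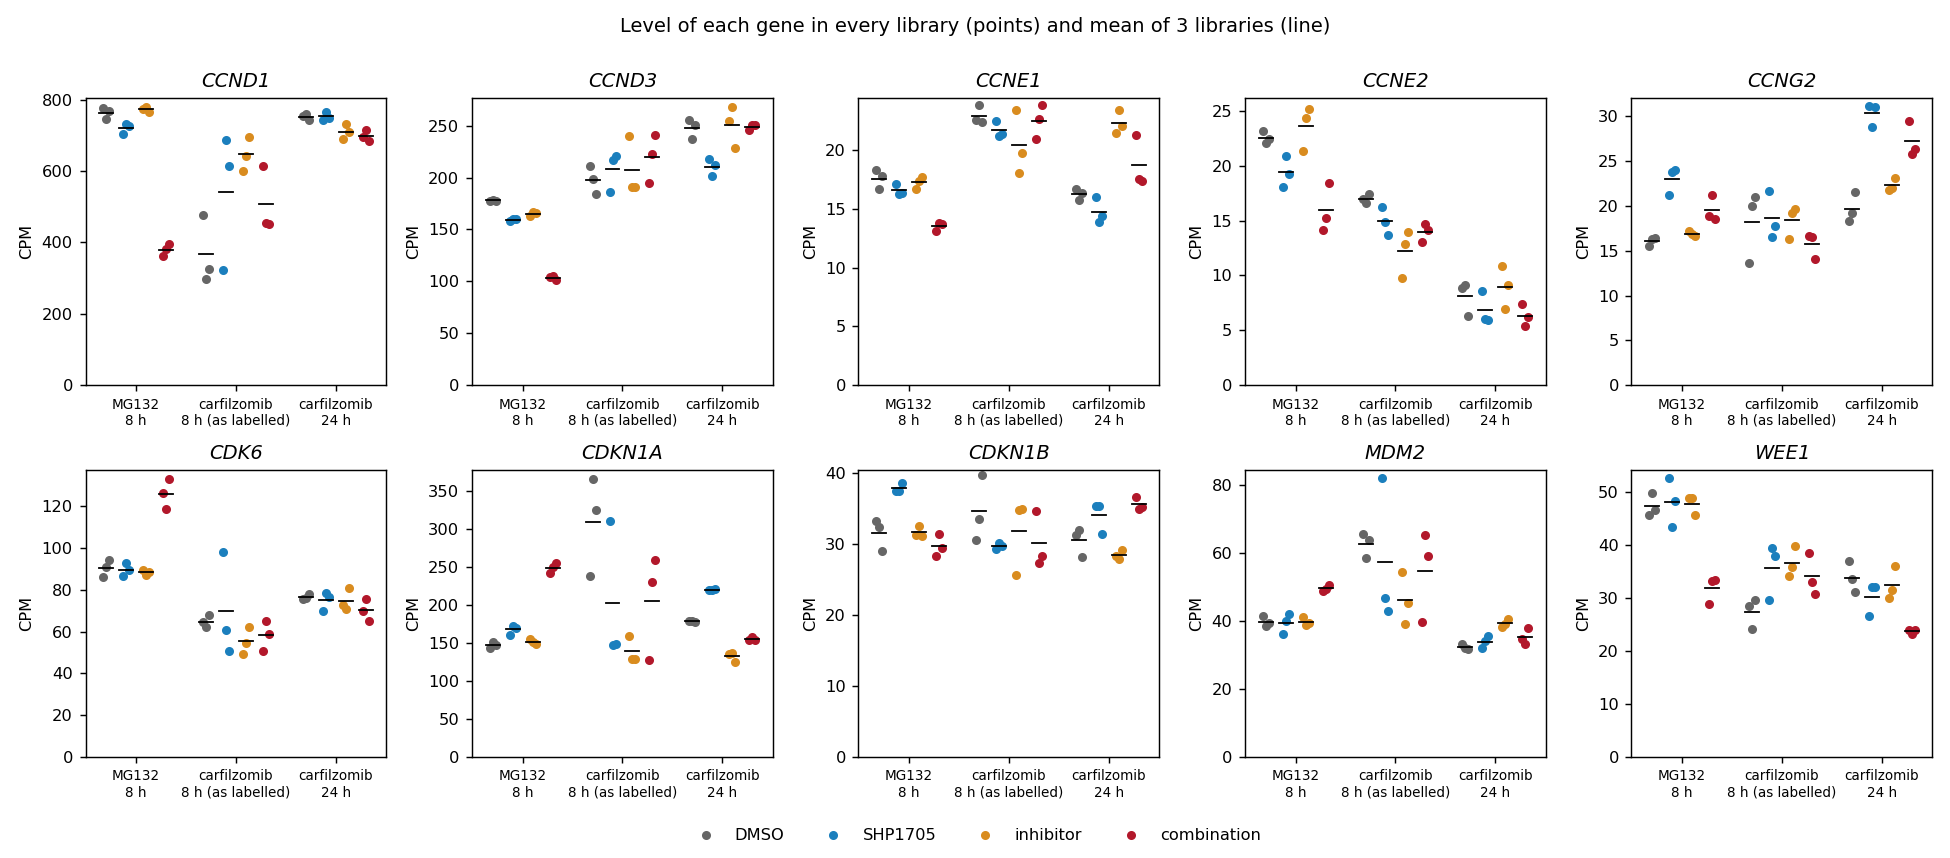
CPM of each gene in all 36 libraries, by set and treatment, on linear axes from 0; points are libraries, lines the mean of 3, and inhibitor means MG132 or carfilzomib. In the MG132 set the combination libraries lie far below DMSO for CCND1 (363 to 396 against 745 to 776 CPM), and in the carfilzomib 8 h set libraries of one label lie far apart, CCND1 for example at 322, 687 and 614 CPM under the label SHP1705.

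SHP1705 alone raised CCNG2 and CDKN1A and lowered CCND3 in both the MG132 set at 8 h and the carfilzomib 24 h set. CCNG2 encodes an atypical cyclin linked to cell cycle arrest and is a known FOXO target. In the MG132 set it was at 15.6, 16.4 and 16.5 CPM in DMSO and at 21.2, 23.8 and 24.0 CPM in SHP1705, with no overlap, a log2 fold change of 0.51 ± 0.06 (SE, n = 3 per group, adjusted p = 8.85e-05). In the carfilzomib 24 h set it was at 18.4, 19.2 and 21.5 CPM in DMSO and at 31.2, 28.9 and 31.0 CPM in SHP1705, again without overlap, a log2 fold change of 0.63 ± 0.08 (adjusted p = 2.52e-05). The rise was 1.43-fold at 8 h and 1.54-fold at 24 h. The difference between these changes was 0.11 ± 0.16 on the log2 scale (SE, adjusted p = 1) in the fit of all 36 libraries. With only these 2 sets fitted it was 0.11 ± 0.10 (adjusted p = 0.736). A difference was not detected, and set and time cannot be told apart.

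CCNG2 lies on chromosome 4 at 77157207-77170060 and CDKN1B on chromosome 12 at 12717368-12722369, both on the plus strand (RefSeq, GRCh38.p14). The 250 bases before each start site are shown because ARNTL was among the 3 genes most like each of them over the 36 libraries, as described further on. They are printed 5′ to 3′, with the E-box CACGTG in capitals.
CCNG2 (chr4:77156957-77157206, plus strand): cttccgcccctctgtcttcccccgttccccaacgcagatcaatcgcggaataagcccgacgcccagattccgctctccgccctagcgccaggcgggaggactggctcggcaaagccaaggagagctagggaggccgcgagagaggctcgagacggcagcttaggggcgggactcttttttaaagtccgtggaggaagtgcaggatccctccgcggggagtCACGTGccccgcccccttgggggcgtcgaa
CDKN1B (chr12:12717118-12717367, plus strand): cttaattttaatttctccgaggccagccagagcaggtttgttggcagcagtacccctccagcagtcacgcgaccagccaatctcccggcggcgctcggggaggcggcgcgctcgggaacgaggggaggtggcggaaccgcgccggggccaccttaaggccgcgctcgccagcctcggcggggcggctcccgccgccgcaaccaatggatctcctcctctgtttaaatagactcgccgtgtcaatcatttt
The CCNG2 window holds 1 CACGTG, whose first base is 30 bases before the start, and no CACGTG is in the CDKN1B window. In windows from 250 bases before to 50 after the start, CACGTG, a palindrome that reads the same on both strands, was in 7.26% of 35116 RefSeq windows. Among the 7 of 10 genes with a window, it was also in 1 of 2 CDK6 windows, with its first base 30 bases after the start. CCND1, CCNE2 and WEE1 had no window and were not searched. Of the other motifs searched on both strands, the FOXO letters TGTTTAC were in 1 of 3 CCND3 windows and in 3.42% of all windows. The E2F letters TTTCCCGC (1.63% of all windows) and the heat shock element (0.49%) were in none of the windows of these 7 genes. These matches describe letters only.

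CDKN1A encodes the p21 inhibitor (chromosome 6, 36676463-36687332, plus strand). Its level was 143, 151 and 148 CPM in DMSO and 160, 173 and 170 CPM in SHP1705 at 8 h in the MG132 set, a log2 fold change of 0.19 ± 0.03 (SE, adjusted p = 0.00248). At 24 h in the carfilzomib set it was 179, 179 and 178 CPM in DMSO and 220, 219 and 221 CPM in SHP1705, a log2 fold change of 0.30 ± 0.05 (adjusted p = 0.000155). The groups did not overlap in either set. CCND3, a CDK4 and CDK6 partner, fell in both: at 8 h from 178, 179 and 178 CPM to 158, 160 and 160 CPM (log2 fold change -0.16 ± 0.03, adjusted p = 0.00175), and at 24 h from 256, 237 and 251 CPM to 218, 202 and 212 CPM (-0.23 ± 0.05, adjusted p = 0.00963). The 24 h call of CCND3 was lost without DMSO library 1 (adjusted p = 0.064) or SHP1705 library 2 (adjusted p = 0.0651).

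CDKN1B encodes p27, which restrains CDK2. In the MG132 set it rose from 33.3, 32.4 and 29.1 CPM to 37.5, 37.5 and 38.7 CPM, a log2 fold change of 0.26 ± 0.05 (adjusted p = 0.00438). At 24 h it was at 31.4, 32.1 and 28.2 CPM in DMSO and at 35.4, 35.4 and 31.4 CPM in SHP1705, where the groups overlapped and the change of 0.16 ± 0.07 was not called (adjusted p = 0.276). The difference between the sets was -0.11 ± 0.14 (adjusted p = 1), and -0.11 ± 0.09 (adjusted p = 0.691) with only these 2 sets fitted. The other 6 genes, CCND1, CCNE1, CCNE2, CDK6, MDM2 and WEE1, were not called in either set, with log2 fold changes from -0.25 to 0.07. CCNE2 at 8 h (-0.22 ± 0.08, adjusted p = 0.115) was called with no filter (0.0312) or with these groups fitted alone (0.0365). WEE1, for which a clock link is described, gave 0.02 ± 0.06 at 8 h (adjusted p = 0.886) and -0.16 ± 0.09 at 24 h (adjusted p = 0.369).

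In all, SHP1705 alone changed 4 of the 10 genes in the MG132 set, 3 up and 1 down, where 7.53% of 16591 genes were called, 3.45% up and 4.08% down. In the carfilzomib 24 h set 3 of 10 changed, 2 up and 1 down, where 4.46% of 16183 genes were called, 1.95% up and 2.51% down. The median log2 fold change of the 10 was -0.01 in both sets, beside 0.00 over all genes. SHP1705 libraries 2 and 3 of the MG132 set carried POSTN, as given above. Without these and MG132 libraries 1 and 3, which leaves 1 SHP1705 library that is assumed to vary like the other groups, none of the 10 was called. The log2 fold changes were then 0.40 for CCNG2 (adjusted p = 0.0565), 0.12 for CDKN1A (0.287), 0.25 for CDKN1B (0.179) and -0.17 for CCND3 (0.0975). In the carfilzomib 24 h set, where CCNG2, CDKN1A and CCND3 were called, POSTN was at or below 0.0534 CPM.

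Among related genes, SHP1705 lowered CDC25A, the phosphatase that activates CDK2, in both sets (log2 fold change -0.20 ± 0.05 and -0.24 ± 0.06, adjusted p = 0.0231 and 0.0305). It was the 1 change among 17 other G1/S kinase, cyclin and pocket protein genes at 8 h, and 1 of 3 at 24 h, all 3 lower, with CDK4 at -0.49 ± 0.07 and E2F1 at -0.30 ± 0.06. The CDK4 inhibitor gene CDKN2D also fell in both sets, by 0.23 and 0.45 on the log2 scale (adjusted p = 0.0209 and 0.00429). Of 11 FOXO factors and targets, 1 rose at 8 h (CITED2, 0.16 ± 0.04) and none was called at 24 h. The 8 h calls of these related genes were not checked without the libraries that carried POSTN.

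**Figure D2:**
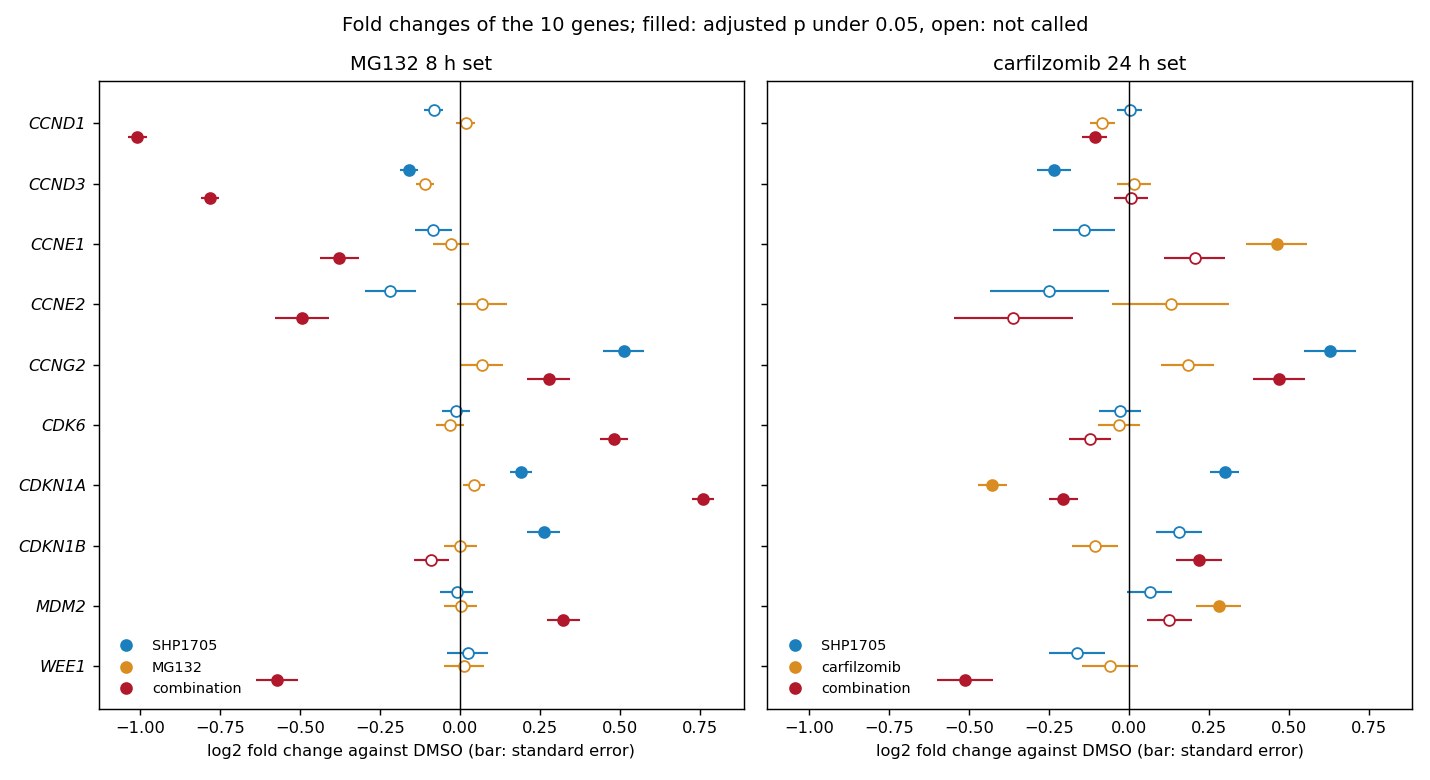
Log2 fold change of each gene against DMSO with its standard error, for SHP1705, the inhibitor and the combination in the MG132 8 h set (left) and the carfilzomib 24 h set (right); filled points have an adjusted p under 0.05. The combination lowered WEE1 in both sets (-0.57 and -0.51), and CDKN1A was higher with the combination in the MG132 set (0.76) and lower in the carfilzomib 24 h set (-0.20).

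At 100 nM for 8 h, MG132 changed none of the 10 genes by edgeR, with log2 fold changes from -0.11 to 0.07. No gene in the table was called (0% of 16591), while 1574 genes and 1 of the 10 had an unadjusted p under 0.05. That gene was CCND3, at 163, 166 and 166 CPM against 178, 179 and 178 CPM in DMSO (-0.11 ± 0.03, adjusted p = 0.186), which DESeq2 called (-0.11, adjusted p = 0.00851).

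Carfilzomib at 10 nM for 24 h raised CCNE1 and MDM2 and lowered CDKN1A. CCNE1, the CDK2 partner, went from 16.7, 15.7 and 16.3 CPM to 21.5, 23.5 and 22.1 CPM (log2 fold change 0.46 ± 0.09, adjusted p = 0.00102). MDM2, the ubiquitin ligase gene, went from 33.2, 32.1 and 31.9 CPM to 38.3, 39.1 and 40.7 CPM (0.28 ± 0.07, adjusted p = 0.00518). CDKN1A went from 179, 179 and 178 CPM down to 136, 138 and 126 CPM (-0.43 ± 0.05, adjusted p = 3.89e-07). For each of the 3 genes the carfilzomib and DMSO libraries did not overlap, and MDM2 and CDKN1A moved in opposite directions. The 3 of 10 called, 2 up and 1 down, compare with 21.5% of genes, 10.1% up and 11.4% down.

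SHP1705 with MG132 changed 9 of the 10 genes against DMSO, 4 up and 5 down, in a contrast where 58.8% of all genes were called, 29.2% up and 29.7% down. CCND1, the largest change among them, was at 776, 745 and 769 CPM in DMSO, 703, 733 and 727 in SHP1705, 775, 780 and 764 in MG132, and 363, 380 and 396 in the combination. The combination libraries thus lay at a fold of 0.497 of DMSO (log2 fold change -1.01 ± 0.03, adjusted p = 5.43e-16). CCND1 lies on chromosome 11 at 69641156-69654474, plus strand. CCND3 stood at 104, 106 and 102 CPM in the combination, below all DMSO, SHP1705 and MG132 libraries (-0.78 ± 0.03, adjusted p = 1.39e-14).

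Both E-type cyclins fell. CCNE1 was at 18.3, 16.7 and 17.8 CPM in DMSO and 13.2, 13.8 and 13.7 CPM in the combination (-0.38 ± 0.06, adjusted p = 2.09e-05). CCNE2 was at 23.1, 22.0 and 22.4 CPM in DMSO and 14.2, 15.2 and 18.4 CPM in the combination (-0.49 ± 0.08, adjusted p = 4.51e-05). WEE1 (chromosome 11, 9573670-9589985, plus strand) was at 45.7, 49.8 and 46.6 CPM in DMSO, 52.7, 43.4 and 48.3 in SHP1705, 48.8, 48.9 and 45.7 in MG132, and 28.9, 33.2 and 33.4 in the combination. All 3 combination libraries lay below the other 9 (-0.57 ± 0.07, adjusted p = 3.78e-07).

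CDKN1A and CDK6 rose. CDKN1A was at 242, 250 and 255 CPM in the combination against 143, 151 and 148 CPM in DMSO, a 1.69-fold rise (log2 fold change 0.76 ± 0.03, adjusted p = 3.54e-13). CDK6, the D-cyclin kinase, was at 126, 119 and 133 CPM against 85.9, 90.8 and 94.3 CPM in DMSO (0.48 ± 0.04, adjusted p = 1.14e-08), so that it and its cyclin partners changed in opposite directions.

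MDM2 and CCNG2 were called higher with TMM scaling, at 49.0, 49.5 and 50.6 CPM against 41.4, 38.4 and 39.4 CPM in DMSO for MDM2 (0.32 ± 0.05, adjusted p = 1.93e-05), and at 18.9, 21.2 and 18.5 CPM against 15.6, 16.4 and 16.5 CPM for CCNG2 (0.28 ± 0.07, adjusted p = 0.00125). Neither call held when libraries were scaled by total counts alone, at 0.02 for MDM2 (adjusted p = 0.755) and -0.03 for CCNG2 (adjusted p = 0.743), a setting chosen after seeing the data that moves the median of all genes to -0.31. With that scaling CDKN1B, not called with TMM at -0.09 ± 0.05 (adjusted p = 0.167), was lower (-0.39, adjusted p = 2.15e-06). Without DMSO library 3, CDKN1B was called lower with TMM too (-0.16, adjusted p = 0.0173). CDKN1A and CDK6 were still called higher, at 0.46 and 0.18, and CCND1, CCND3, CCNE1, CCNE2 and WEE1 lower, at -1.31, -1.08, -0.68, -0.80 and -0.87. Over all genes the calls split into 4838 higher and 4925 lower with TMM, and into 2287 higher and 8740 lower with total counts. The heat shock gene HSPA1A was at 38927, 40611 and 39707 CPM in the combination and at 533 to 615 CPM in DMSO.

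The interaction compares the combination with the sum of the single log2 changes. It was called for all 10 genes, 3 positive (CDK6 0.52 ± 0.06, CDKN1A 0.53 ± 0.05 and MDM2 0.33 ± 0.07) and 7 negative, where 48.9% of genes were called, 24.7% positive and 24.2% negative. CCND1 (-0.94 ± 0.04, adjusted p = 6.29e-13), WEE1 (-0.61 ± 0.09, adjusted p = 1.6e-05) and CCND3 (-0.51 ± 0.04, adjusted p = 2.57e-09) had the largest negative values. CDKN1B, which SHP1705 alone raised, was at 28.4, 31.4 and 29.4 CPM in the combination, below every SHP1705 library (interaction -0.35 ± 0.07, adjusted p = 0.000574). With total counts the MDM2 interaction was not called (adjusted p = 0.975), and those of CDK6 and CDKN1A were both 0.19 (0.0131 and 0.00183). The 7 negative ones were larger in size with that scaling, for example CCNE1 at -0.60, CCNG2 at -0.64, CDKN1B at -0.69, CCND3 at -0.84 and WEE1 at -0.94.

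Against MG132 alone, 9 of 10 were called, 4 up and 5 down (57.2% of all genes, 28.2% up and 28.9% down). Against SHP1705 alone, 10 of 10 were called, 3 up and 7 down (61% of all genes, 31% up and 30% down). With total counts MDM2 was called in neither contrast, at 0.01 against each (adjusted p = 0.926 and 0.869). Against MG132, CCNG2 was then not called either (-0.11, 0.16) and CDKN1B was called lower (-0.40, 1.4e-06). POSTN was present in all 3 combination libraries and its part in these results was not tested. MG132 library 3, with POSTN at 173 CPM, had CCND1 at 764, CDKN1A at 149 and WEE1 at 45.7 CPM. Leaving out the 4 libraries outside the combination that carried POSTN removed no library of the contrast against DMSO. That fit therefore cannot show the part of POSTN in that contrast. Some calls against MG132, against SHP1705 and in the interaction were lost in it. The CCNG2 change against MG132 was then 0.20 (adjusted p = 0.113), the CCNE1 interaction -0.33 (0.0657) and the CCNE2 interaction -0.30 (0.168), with SEs of 0.10, 0.13 and 0.16. That fit holds 1 library each of SHP1705 and MG132, each assumed to vary like the other groups. The other lost calls, unlike the CCNE1 interaction, had values smaller in size than with all libraries. They were CCNE2 and CCNG2 against SHP1705 at -0.19 and -0.13, and the CCNG2 interaction at -0.20. Single libraries also decided calls: CCNE2 against SHP1705 without combination library 1 (0.0544), CCNG2 against MG132 without combination library 2 (0.0943), and the CCNE2 interaction without SHP1705 library 2 (0.0552) or combination library 1 (0.0596).

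Of 10 genes that control CDK1 entry beside WEE1, 9 fell and none rose (median log2 fold change -0.65, beside -0.01 over all genes). They were led by PLK1 (-1.71 ± 0.04), CDC25B (-1.26 ± 0.04) and CCNB1 (-0.84 ± 0.03), which promote mitotic entry. The list also holds genes that restrain it. Of 17 other G1/S genes, 5 rose and 8 fell, with E2F2 at -2.13 ± 0.11 and its partner gene TFDP2 at 1.00 ± 0.05. Of 17 ubiquitin ligase and deubiquitinase genes acting on G1 regulators, 8 rose and 6 fell (median 0.08). SKP2, whose product marks p27 for destruction, fell by 1.33 on the log2 scale, while the ligase genes CUL1 (0.56 ± 0.03) and FBXW11 (0.50 ± 0.03) rose. Of 11 FOXO factors and targets, 5 rose and 2 fell (median 0.09), with KLF6 at 1.01 ± 0.03, SESN3 at 1.26 ± 0.12 and CITED2 at -0.49 ± 0.04. These counts stand beside the 29.2% of all genes called higher and 29.7% called lower. All list values in this contrast use TMM scaling. The lists were not counted with scaling by total counts, which moves log2 fold changes lower here, as given above. Among 5 other CDK inhibitor genes, CDKN2C, CDKN2D and CDKN1C fell by 1.15, 1.36 and 1.25 on the log2 scale. The 2 called higher, named after their values were seen, were CDKN2A and CDKN2B. CDKN2A was at 3.08, 6.85 and 7.58 CPM in the combination, at 5.04 CPM in MG132 library 3, and at or below 0.0276 CPM in DMSO, and POSTN was high in the same 4 libraries.

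SHP1705 with carfilzomib for 24 h changed 5 of the 10 genes against DMSO, where 27.3% of genes were called, 13% up and 14.3% down: CCNG2 and CDKN1B rose, and CCND1, CDKN1A and WEE1 fell. WEE1 was at 36.9, 33.6 and 31.0 CPM in DMSO, 26.6, 32.0 and 32.1 in SHP1705, 30.0, 31.5 and 36.1 in carfilzomib, and 24.0, 23.3 and 24.0 in the combination. The 3 combination libraries were the lowest of the 12 (log2 fold change -0.51 ± 0.09, adjusted p = 0.000117). WEE1 also fell against carfilzomib alone (-0.45 ± 0.09, adjusted p = 0.00179) and against SHP1705 alone (-0.35 ± 0.09, adjusted p = 0.00502).

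CDKN1A in the combination, at 154, 158 and 154 CPM, lay between carfilzomib (136, 138 and 126) and DMSO (179, 179 and 178). It was lower than DMSO (-0.20 ± 0.05, adjusted p = 0.00155) and SHP1705 (-0.50 ± 0.05, adjusted p = 1.69e-08) and higher than carfilzomib (0.22 ± 0.05, adjusted p = 0.00308). CCNG2, at 29.5, 25.8 and 26.4 CPM, was above all DMSO libraries (0.47 ± 0.08, adjusted p = 0.000127). CDKN1B, at 36.7, 35 and 35.3 CPM, was also above all DMSO libraries (0.22 ± 0.07, adjusted p = 0.0244) and above carfilzomib (0.33 ± 0.07, adjusted p = 0.00506). The CDKN1B call against DMSO was lost without DMSO library 3 (0.143) or combination library 1 (0.0919) or 3 (0.0544), values that are adjusted p.

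CCND1 was at 695, 716 and 685 CPM in this combination against 754, 760 and 743 CPM in DMSO, a log2 fold change of -0.11 ± 0.04 (adjusted p = 0.0429). That call was lost when any one of 5 of the 6 libraries compared was left out, DMSO 1, 2 or 3 or combination 1 or 3 (adjusted p from 0.0657 to 0.147), with no filter on low counts (0.15) and with scaling by total counts (0.124). CCND3, at 246, 250 and 251 CPM, was higher than with SHP1705 alone (0.24 ± 0.05, adjusted p = 0.00161) and was not called against DMSO (0.01 ± 0.05, adjusted p = 0.949).

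Against carfilzomib alone, 4 of the 10 genes were called, 3 up (CCNG2, CDKN1A and CDKN1B) and 1 down (WEE1), where 9.02% of genes were called, 4.36% up and 4.67% down. CCNG2 was the weakest of these (0.29 ± 0.08, adjusted p = 0.0255), and its call was lost without carfilzomib library 1 (0.0659) or 2 (0.0522) or combination library 1 (0.149) or 3 (0.0528), and when these groups were fitted alone (0.058). Against SHP1705 alone, 5 of 10 were called (24.2% of genes, 11.8% up and 12.4% down): CCND3 and CCNE1 higher, and CCND1, CDKN1A and WEE1 lower. CCNE1 there (0.35 ± 0.09, adjusted p = 0.00929) was lost without combination library 1 (0.0991), and CCND1 (-0.11 ± 0.04, adjusted p = 0.0421) without any one of 5 libraries, SHP1705 1, 2 or 3 or combination 1 or 3 (0.0639 to 0.141), with no filter (0.115) or with total counts (0.0929).

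No interaction of SHP1705 with carfilzomib at 24 h was called among the 10 genes by edgeR, where 0.482% of genes were called. DESeq2 also called 0. By edgeR, 4 of the 10 had an unadjusted p under 0.05, as did 2202 of all 16183 genes. WEE1 gave -0.29 ± 0.12 (adjusted p = 0.295), CCNG2 -0.34 ± 0.11 (0.162) and CCND3 0.23 ± 0.08 (0.162). Whether the interaction differed between the MG132 and carfilzomib sets was not tested, and the inhibitor, its dose and the time differ between them.

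Of 10 genes of CDK1 entry control, 6 fell and none rose with this combination, with CDK1 at -0.68 ± 0.07, CDC25B at -0.59 ± 0.04 and CCNB1 at -0.22 ± 0.04 (median -0.24, beside 0.00 over all genes). Of 17 other G1/S genes, 1 rose and 6 fell, led by E2F1 (-0.61 ± 0.06), CDK2 (-0.54 ± 0.06) and TFDP1 (-0.45 ± 0.05). Of 3 other CDK inhibitor genes tested, 1 was called higher and 2 lower. CDKN2C, a CDK4 and CDK6 inhibitor gene, fell by 0.99 on the log2 scale. Of 11 FOXO factors and targets 2 rose, CITED2 (0.68 ± 0.06) and PINK1 (0.31 ± 0.08). Over all genes 13% were called higher and 14.3% lower.

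Across all 36 libraries, each centred on the mean of its set, ARNTL was the gene most like CDKN1B (Pearson r = 0.766) and second most like CCNG2 (r = 0.766, after ARMCX1 at 0.788) among 10732 genes with a mean of at least 5 CPM. Within the sets of 12, r between CCNG2 and ARNTL was 0.867 in the MG132 set, 0.663 in the carfilzomib 8 h set and 0.85 in the carfilzomib 24 h set. For CDKN1B and ARNTL the values were 0.676, 0.762 and 0.893. NFIL3, a clock-linked repressor gene, was also among the 3 genes most like CDKN1B (r = 0.718). ARNTL was itself higher in every SHP1705 library than in every DMSO library of the MG132 set (16 to 19.1 against 8.85 to 10.3 CPM) and of the carfilzomib 24 h set (13.1 to 16.5 against 4.88 to 5.2 CPM).

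**Figure D3:**
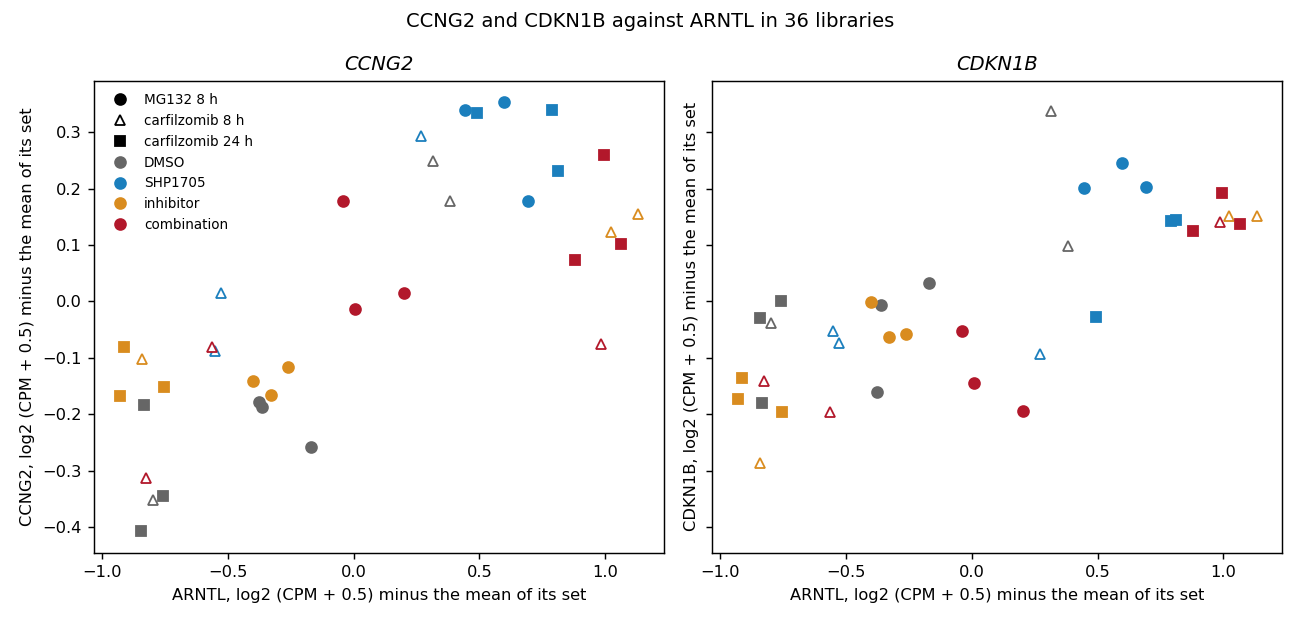
CCNG2 (left) and CDKN1B (right) against ARNTL, each as log2 of CPM plus 0.5 minus the mean of its set, in 36 libraries; shapes are sets and colours are treatments as labelled, with open triangles for the carfilzomib 8 h set. Libraries with high ARNTL mostly had high CCNG2 and CDKN1B (r = 0.766 for each), and the MG132 combination libraries, with ARNTL from -0.04 to 0.20, had CDKN1B below the mean of their set.

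The remaining genes had other nearest neighbours. MAMLD1 was most like CCND1 (r = 0.988), CALR, an endoplasmic reticulum chaperone gene, was most like CDKN1A (0.933), and TMPO was most like WEE1 (0.925). The nearest genes were PHLDA2 for CCND3 (0.936), TOR1AIP2 for MDM2 (0.947), FNDC3B for CDK6 (0.913), ECI2 for CCNE1 (0.806) and CLSPN for CCNE2 (0.717). CCND1 and CDKN1A ran opposite to each other (r = -0.828). All these values share libraries, depth and treatments, so they are descriptions without a test.

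In the carfilzomib 8 h set, libraries that share the label SHP1705 or combination lay far apart in CCND1, CDKN1A, MDM2 and WEE1. CCND1 was at 476, 298 and 326 CPM in the libraries labelled DMSO, 322, 687 and 614 in those labelled SHP1705, 601, 643 and 696 in those labelled carfilzomib, and 614, 454 and 451 in those labelled combination. CDKN1A was at 239, 366 and 326 CPM in the libraries labelled DMSO, 310, 148 and 149 in SHP1705, 160, 129 and 129 in carfilzomib, and 128, 230 and 260 in the combination. The 6 libraries lowest in CCND1 were also the 6 highest in CDKN1A and in MDM2 and the 6 lowest in WEE1: those labelled DMSO 1, 2 and 3, SHP1705 1 and combination 2 and 3.

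HSPA1A, a heat shock gene, was at 14559, 23605 and 23242 CPM in the libraries labelled DMSO, at 19856 CPM in SHP1705 library 1 and at 12019 and 15052 CPM in combination libraries 2 and 3, the same 6 libraries. It was at 693 to 896 CPM in the other 6, including all 3 labelled carfilzomib. In the DMSO libraries of the other sets HSPA1A was at 533 to 715 CPM. No direction of a drug effect is read from this set.

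As labelled, 4 of the 10 genes were called for carfilzomib against DMSO (23% of 15577 genes, 11.7% up and 11.3% down), 2 of them up and 2 down: CCND1 0.82 ± 0.25, WEE1 0.42 ± 0.14, CDKN1A -1.16 ± 0.31 and CCNE2 -0.48 ± 0.14 (adjusted p from 0.04 to 0.0461). All 4 calls were lost when any one of DMSO libraries 2 and 3 or carfilzomib libraries 1, 2 and 3 was left out. None of the 10 was called by edgeR for SHP1705, for the combination against any other group, or for the interaction, and in each of these contrasts 0% of genes were called. Unadjusted p was under 0.05 for 2 of the 10 for SHP1705, 1 for the combination against DMSO, none for the combination against carfilzomib or SHP1705, and 3 for the interaction. Over all 15577 genes it was under 0.05 for 2244 for SHP1705 and 1454 for the combination against DMSO. It was so for 898 and 446 for the combination against carfilzomib and SHP1705, and for 3951 for the interaction. Without the 4 libraries numbered 1, a setting chosen after seeing the data, 8 of 10 were called for SHP1705 against DMSO, with CCND1 at 1.06, CDKN1A at -1.22 and WEE1 at 0.53. The share of all genes called in that setting is not given here, so this count is not read as particular to these genes. Those values still rest on labels that PER3 and HSPA1A go against.

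**Figure D4:**
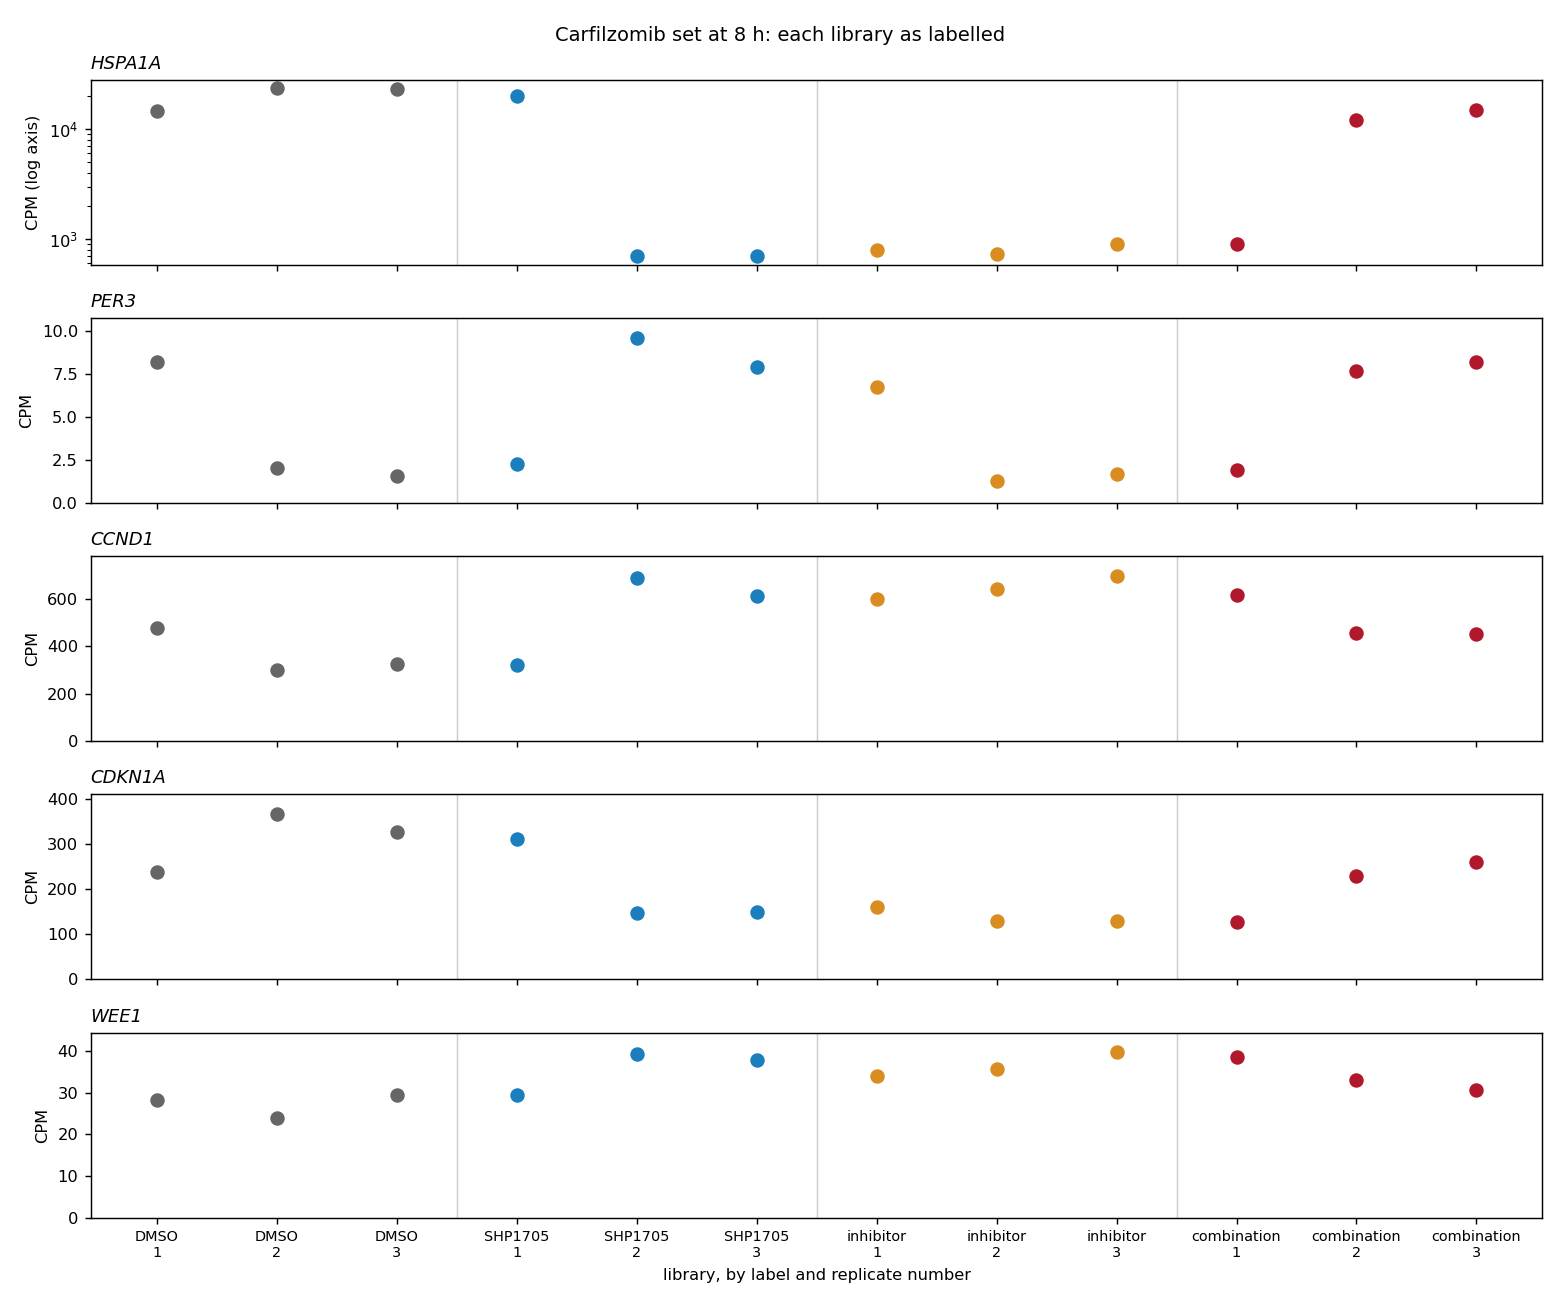
HSPA1A (log axis), PER3, CCND1, CDKN1A and WEE1 in CPM in each of the 12 libraries of the carfilzomib 8 h set, in the order of their labels and replicate numbers; inhibitor is carfilzomib. In each group the library numbered 1 departs from the other two in PER3, and HSPA1A is at 12019 CPM or above in 6 libraries, all 3 labelled DMSO among them.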

How the data were processed

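PolyA RNA from 36 MDA-MB-231 samples was sequenced. The authors deposited 3 tables of raw read counts per gene (54583 genes, 12 libraries each), made with Trimmomatic, FastQC, HISAT2 and featureCounts on hg38, per the submitters' processing notes. The sources used here name no version, annotation release or strand setting, and reads of antisense partners could not be separated.

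Counts were tested with edgeR 4.0.16 (R 4.3.3): filterByExpr, TMM, quasi-likelihood F-test over 4 groups per set, or over 12 groups for differences between sets, with Benjamini-Hochberg adjustment over all genes tested. SE is the absolute log2 fold change divided by the square root of F. Named genes were the 10 genes and up to 3 called genes with the smallest adjusted p in each of 7 pathway lists (90 genes), with the 3 genes most like each of the 10 and fixed readouts of state and of other cells. Results of 2 of the lists are not reported here. The genes and lists were chosen with earlier results of these data known.

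Groups came from sample titles. Few same-numbered libraries of a set deviated together (1 of 18, 2 of 18 and 0 of 18 pairs with r above 0.1), so no pairing was used. In the carfilzomib 8 h set r ran from -0.725 to 0.296. Same-numbered SHP1705 and combination libraries there deviated in opposite directions (r = -0.725, -0.462 and -0.514). No 2 libraries of a group were duplicates. Alternatives were RLE factors, DESeq2 1.42.0, no filter, a replicate block, only the groups compared, and each library left out. Total-count scaling and leaving out libraries that stood apart were added after seeing the data. The code was tested on simulated data. Figures used matplotlib 3.10.9, and promoters are from RefSeq GRCh38.p14.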

Additional observations from a re-analysis of the deposited data

Results flagged for a closer look

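The effects of treatment differed between the carfilzomib sets at 24 h and 8 h for several of the 10 genes by edgeR's quasi-likelihood test of the difference itself in all 36 libraries. Each difference rests on the 8 h labels, which PER3 and HSPA1A go against, and cannot be read as a change over time. For SHP1705 the difference was called for 1 of 10 genes (2.94% of all genes), CCNG2, at 0.62 ± 0.16 (SE, log2, 24 h minus 8 h, adjusted p = 0.0313).

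For carfilzomib it was called for 6 of 10 (40.1% of all genes): CCND1 -0.90 ± 0.22, CCNE1 0.63 ± 0.12, CCNE2 0.61 ± 0.22, CDKN1A 0.73 ± 0.27, MDM2 0.72 ± 0.22 and WEE1 -0.47 ± 0.15 (adjusted p from 0.000231 to 0.0315). For the combination it was called for 3 of 10 (20.4% of all genes): CCNG2 0.69 ± 0.16, CDKN1B 0.43 ± 0.14 and WEE1 -0.82 ± 0.15 (adjusted p from 0.00044 to 0.0283). With only these 2 sets fitted, CCNG2 for SHP1705 (adjusted p = 0.171), CCNE2 (0.0638) and CDKN1A (0.0854) for carfilzomib and CDKN1B (0.0929) for the combination were not called. Scaling by total counts lost the same 4 (0.0744, 0.162, 0.0611 and 0.191). Leaving out single libraries also lost them, with adjusted p up to 0.162, 0.107, 0.107 and 0.149, and lost WEE1 for carfilzomib (up to 0.0556). CCNE2 was also not called without the 8 h libraries numbered 1 (0.0736). With 3 libraries a group, no formal test for single outlying samples was run. The library numbered 1 of every carfilzomib 8 h group stood apart, as given above.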

How the results depend on the processing

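The counts in this section lack the share of all genes called in each setting. They are therefore not read as particular to these genes. Counts of called genes among the 10 moved by over 1.5 times as follows. In the MG132 set the SHP1705 count went from 4 to 0 without the 4 libraries carrying POSTN, and DESeq2 called 1 for MG132 where edgeR called 0. In the carfilzomib 8 h set, no filter on low counts gave 2 for SHP1705, 2 and 1 for the combination against DMSO and carfilzomib, and 2 for the interaction. The replicate block gave 0 for carfilzomib in place of 4. Without the 4 libraries numbered 1, the counts there were 8 for SHP1705, 5, 7 and 4 for the combination against DMSO, carfilzomib and SHP1705, and 6 for the interaction. Leaving out 1 library gave 0 to 3 for SHP1705, 0 to 2 for carfilzomib and 0 to 4 for the interaction. In the carfilzomib 24 h set it gave 3 to 5 for the combination against DMSO, 3 to 5 against SHP1705 and 0 to 1 for the interaction.

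The SHP1705 effect at 24 h minus that at 8 h, called for 1 gene, was called for 4 without a filter, 3 with DESeq2, 3 with total counts, 0 with the replicate block, 0 with only these 2 sets, 7 without the libraries numbered 1, and 0 to 6 with 1 library left out. The combination difference gave 6 without the libraries numbered 1.

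Signs reversed with total counts for CCNG2 in the MG132 combination against DMSO (-0.0261) and against MG132 (-0.11), and for the MDM2 interaction (-0.0033). Without the 8 h libraries numbered 1 they reversed for CCNG2 under SHP1705 (-0.26) and MDM2 in the combination against SHP1705 (0.47). The causes were not tested. The replicate block also called CCNE2 for the 24 h combination against carfilzomib (-0.49, adjusted p = 0.0464), and the numbers do not pair the libraries. RLE factors changed no call.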
